A study of Mus musculus with 2 samples.

Results

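The genes described here are 36 members of the glycolysis and hypoxia response programme, chosen as a list of symbols, and all 36 were found by symbol in a table of 16463 genes from resting mouse macrophages. They comprise 20 glycolytic enzymes and their regulators, 6 genes of oxygen sensing and 10 oxygen-responsive genes, among which Egln3 is counted. The cells were unstimulated bone marrow-derived macrophages labelled C57BL/6J, grown for 5 days with 10% serum and 10% conditioned medium of L929 cells, a fibroblast line that supplies macrophage colony-stimulating factor. One group, WT, carried Lyz2-Cre, in which the lysozyme M gene drives the recombinase in the myeloid lineage. The other, TKO, carried Lyz2-Cre with a floxed mir-17~92 cluster and was labelled null for mir-106a~363 and mir-106b~25, so loss of mir-17~92 depends on Cre activity in those cells, while the other clusters are labelled -/-. Both groups therefore carry Cre. How many mice stand behind a library, and their age, is not stated in the labels. Each genotype had 1 library, so no difference below has a replicate check, no test was run, and all intervals are 95% intervals that cover counting error only.

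Glycolysis splits glucose into pyruvate, with regeneration of NAD by lactate dehydrogenase when pyruvate is turned into lactate, and it is the pathway on which inflammatory macrophages lean when activated. The hypoxia response is run by the HIF transcription factors, whose alpha subunits are hydroxylated by EGLN prolyl hydroxylases when oxygen is present, bound by the VHL ubiquitin ligase and degraded. When oxygen falls, HIF alpha pairs with ARNT, binds a short DNA core and raises transcription of many glycolytic enzymes together with genes such as Vegfa, Bnip3, Pdk1 and Egln3 itself. Glycolytic enzymes thus belong to both programmes, and the comparison asks whether the enzymes and the other oxygen-responsive genes differed alike between the genotypes.

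The WT library held 10877897 counts and the TKO library 10656431 after rounding. The host transcript Mir17hg, from which mir-17~92 is cut, was at 8 counts (WT) and 42 (TKO), and Mcm7, which carries mir-106b~25 in an intron, at 1228 and 1083. Whole host transcripts do not check the deletion of the microRNAs, so the genotypes rest on the labels. All 10 macrophage markers examined passed the count minimum of 20 in 1 library, with Cd68 the most abundant at 1124 FPKM in WT and 1440 in TKO. Their summed level in CPM, counts scaled to the effective library size, was 11473 in WT and 11792 in TKO, but single markers differed in both directions, from a log2 ratio of -0.43 for Adgre1 to 0.68 for Fcgr1. Of the 10 markers 6 had an interval wholly below 0 and 3 wholly above it, and none passed the size rule given below. Markers of fibroblasts and stroma differed between the libraries: all 13 past the minimum had ratios below 0, 12 with an interval wholly below it. By the size rule 10 were lower in TKO: the collagen genes Col1a1 (2871 and 693 counts), Col1a2, Col3a1, Col5a1 and Col6a2, with Postn, Fbn1, Fn1, Pdgfra and Timp3. The listed markers summed to 823 CPM in WT and 244 in TKO, and none of the 14 was at 0. Dendritic cell markers were summed at 282 and 356, with Itgax, Flt3, Cd24a and Dpp4 of 6 past the minimum higher in TKO. The most abundant of them, Irf8, had 2529 and 2379 counts and a log2 ratio of -0.02 (-0.10 to 0.06). Of the neutrophil markers 2 passed the minimum, S100a8 at 9 and 21 counts and Mmp9 at 52 and 19. Neutrophil and erythroid markers were summed at under 10 CPM in either library, and the erythroid Hba-a1 was at 0.17 FPKM in both. The part of these other cell types in the values below was not tested.

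Of the glycolytic enzymes 10 had a ratio of TKO over WT below 0 on the log2 scale and 10 above it, while 8 of 9 measurable oxygen-responsive genes lay below 0, and most of these differences were under 2-fold. Of all genes past the count minimum, 49.4% lay below 0. The size rule behind each call asks for 3 things: a difference of at least 2-fold, an interval that excluded no change and at least 20 counts in 1 library. Of the 36 members 35 reached that minimum, all but Adm. By this rule 2 of the 35 were lower in TKO, Egln3 and Ankrd37, against 2.30% of the 11525 genes past the minimum, and 0 were higher, against 2.43% of all genes. At 1.5-fold the same 2 were lower, against 5.52% of all genes, and 1, Aldoc, was higher, against 5.13%. The median log2 ratio of TKO over WT was -0.03 for the 20 enzymes, -0.10 for the 6 oxygen-sensing genes and -0.42 for the 9 oxygen-responsive genes past the minimum, and 0.0043 for all genes past it. The medians of the oxygen-responsive genes and the enzymes thus lay 0.39 apart on the log2 scale, a description with no test. Ratios in this pair of libraries also drifted with gene length, and once that drift was subtracted the 3 medians were -0.09, -0.08 and -0.31, and the distance was 0.22. With it subtracted, 14 of 20 enzymes, 5 of 6 oxygen-sensing genes and 9 of 9 oxygen-responsive genes lay below 0, against 5749 of all 11525 genes. Most members differed by small amounts: 32 of 35 (91.4%) had a log2 ratio within 0.5 of 0, as did 83.7% of all genes.

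**Figure D1:**
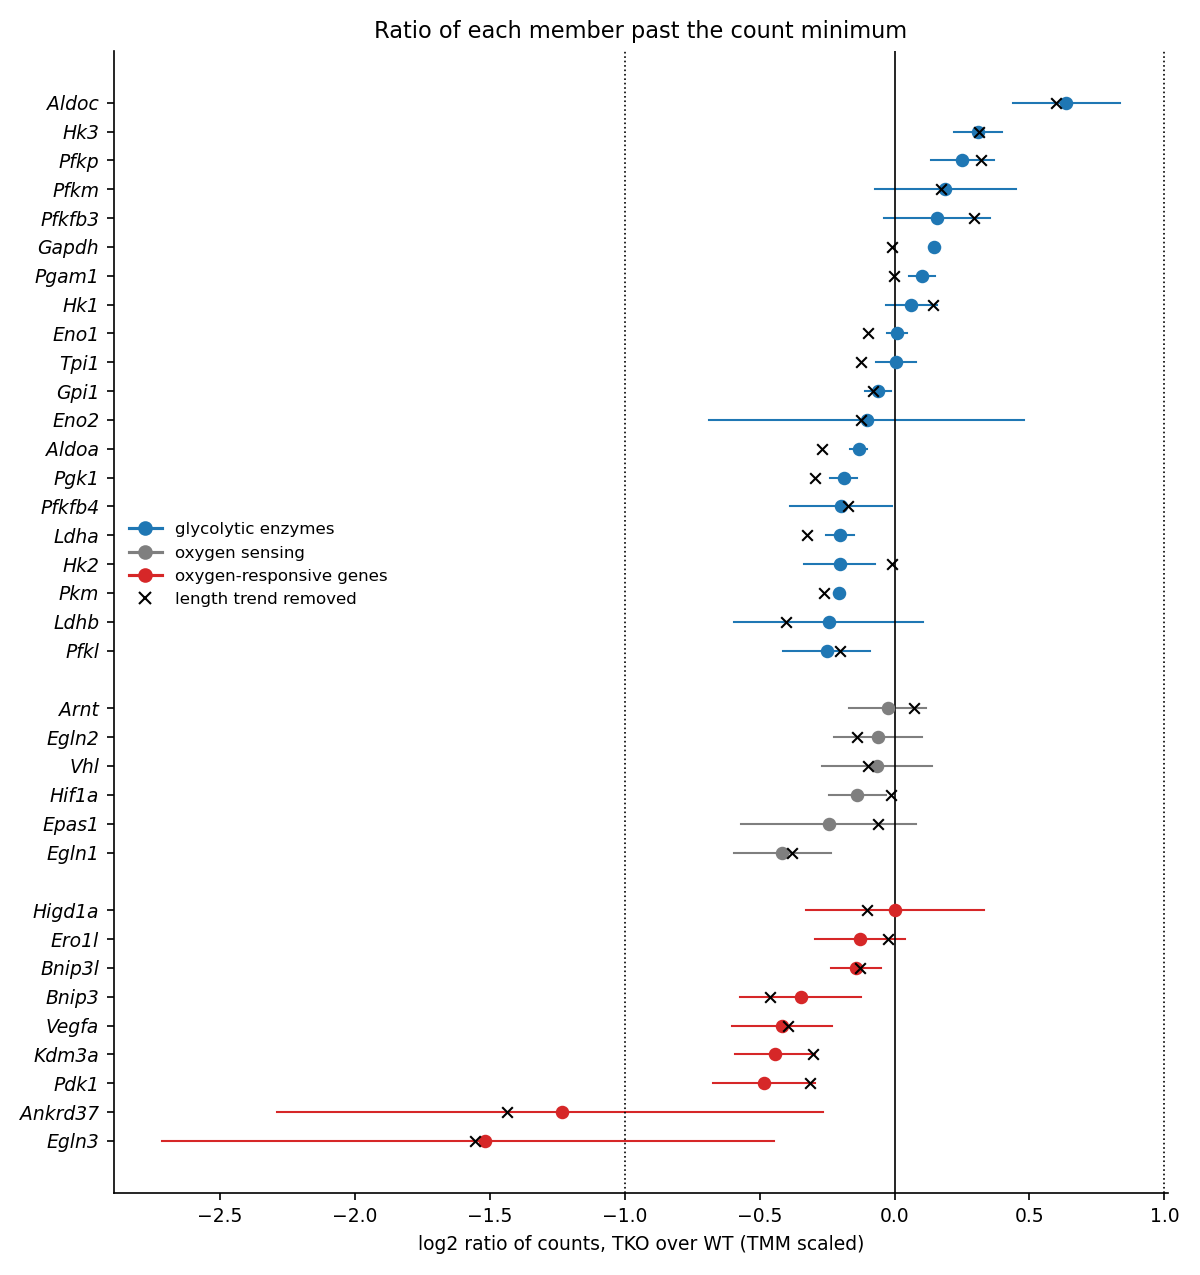
Log2 ratio of counts in TKO over WT (x axis) for the 35 members past the count minimum, with 95% counting intervals as lines and the value with the length trend removed as a cross; dotted lines mark 2-fold. The enzymes (blue) lie on both sides of 0, whereas 8 of 9 oxygen-responsive genes (red) lie below 0 and Egln3 and Ankrd37 lie beyond 2-fold.

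In deep libraries many genes have intervals that leave out 0 at small ratios, and the share of such genes in the whole table is given beside the members. An interval wholly below 0 was found for 17 of the 35 members, 8 of them enzymes, 2 oxygen-sensing genes and 7 oxygen-responsive genes. The same held for 22.7% of all genes past the minimum. Intervals wholly above 0 were found for 5 members, all of them enzymes, against 21.8% of all genes. Abundant genes have narrower intervals, so these shares are not like for like. The median lower and upper bounds were -0.09 and 0.09 for the enzymes, and -0.23 and 0.24 for all genes past the minimum. In the authors' deposited table, whose test has no description in the labels, 21 of the 36 members had an FDR of at most 0.05, 16 of them lower and 5 higher in TKO, against 26.4% of the whole table.

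Several enzymes were among the most abundant transcripts of the cells. Levels are compared between genes in FPKM, which corrects for gene length. Gapdh, which oxidises glyceraldehyde phosphate and yields NADH, stood at 2644 FPKM in WT and 2902 in TKO, rank 9 and rank 11 among all 16463 genes. Pkm, the pyruvate kinase gene, followed at 1689 and 1426 FPKM, then Aldoa, the main aldolase, at 1049 and 933, and Eno1, the main enolase, at 598 and 586. Ldha, Pgam1, Pgk1, Gpi1 and Tpi1 lay between 172 and 375 FPKM in both libraries. Hexokinases and phosphofructokinases were far lower: Hk3 had 55.9 and 69.0 FPKM, and Pfkp 25.1 and 29.1. Pfkfb3, which makes the activator fructose 2,6-bisphosphate, had 7.82 and 8.49. Together the 20 enzymes took 1.40% of all counts in WT and 1.33% in TKO, and their summed counts of 152598 and 141989 gave a log2 ratio of -0.04 (-0.05 to -0.03).

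**Figure D2:**
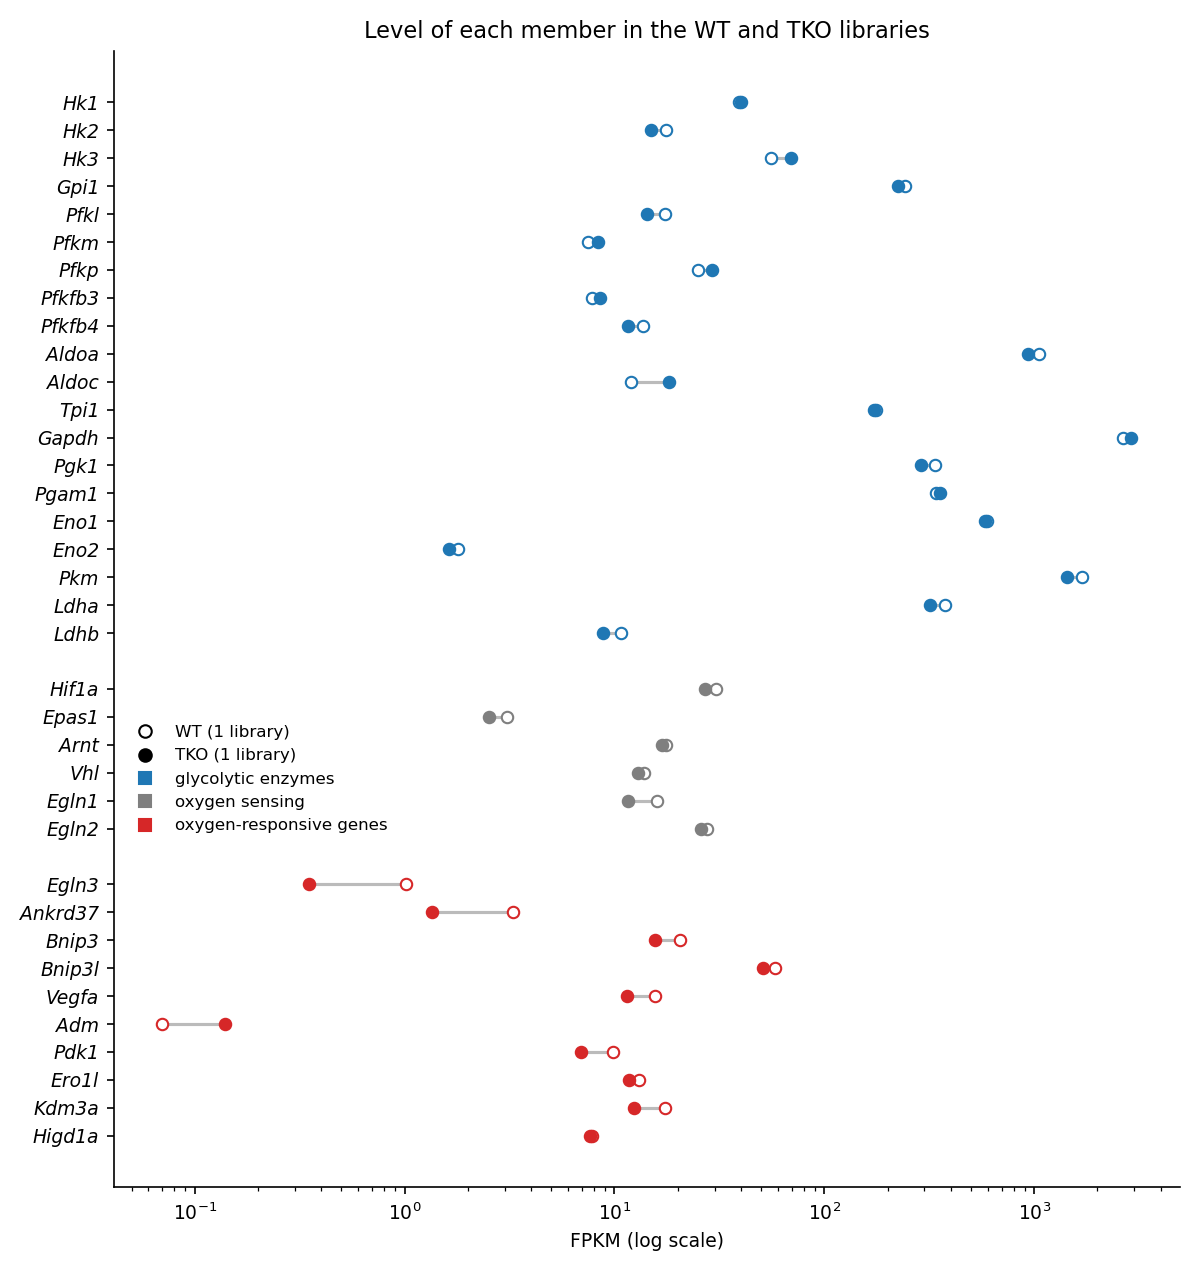
Level of each of the 36 members in FPKM (x axis, log scale), with open circles for the WT library and filled circles for the TKO library. Gapdh, Pkm and Aldoa stand near or above 1000 FPKM, oxygen-responsive genes lie below 60, and for most genes both circles nearly overlap.

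In the early steps, isoforms of the same reaction had ratios on both sides of 0, and none passed the size rule. Hexokinases phosphorylate glucose and trap it in the cell. Hk3, a hexokinase of myeloid cells, was at 1950 counts (WT) and 2309 (TKO), and its log2 ratio was 0.31 (0.22 to 0.40). Hk2, an inducible isoform known as a HIF target, had 1068 and 886 (log2 ratio -0.20, interval -0.33 to -0.07), and -0.01 with the length trend removed. Hk1, the widely expressed isoform, had 1792 and 1788 (log2 ratio 0.06, interval -0.03 to 0.16). Of the counts of the 3 hexokinases, Hk3 took 40.5% (exact interval 39.1 to 41.9) in WT and 46.3% (44.9 to 47.7) in TKO, and Hk2 22.2% (21.0 to 23.4) and 17.8% (16.7 to 18.9). The summed hexokinase counts gave a log2 ratio of 0.12 (0.06 to 0.17).

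Phosphofructokinase, the committed step of the pathway, had the same kind of split. Pfkl, the liver-type subunit, was at 715 and 574 counts (log2 ratio -0.25, interval -0.41 to -0.09), while Pfkp, the platelet-type subunit, had 1110 and 1262 (log2 ratio 0.25, interval 0.13 to 0.37). Pfkm, the muscle-type subunit, had 237 and 258, with an interval that includes 0. The share of Pfkp among the 3 genes' counts was 53.8% (51.7 to 56.0) in WT and 60.3% (58.1 to 62.4) in TKO, and that of Pfkl 34.7% (32.6 to 36.8) and 27.4% (25.5 to 29.4). The summed counts of the 3 subunits, 2062 and 2094, stood at a log2 ratio of 0.09, its interval being -0.00064 to 0.18. Of the bifunctional regulators, Pfkfb3 was at 413 and 440 counts (log2 ratio 0.16, interval -0.04 to 0.35), and Pfkfb4 503 and 419 (log2 ratio -0.20, interval -0.39 to -0.01).

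**Figure D3:**
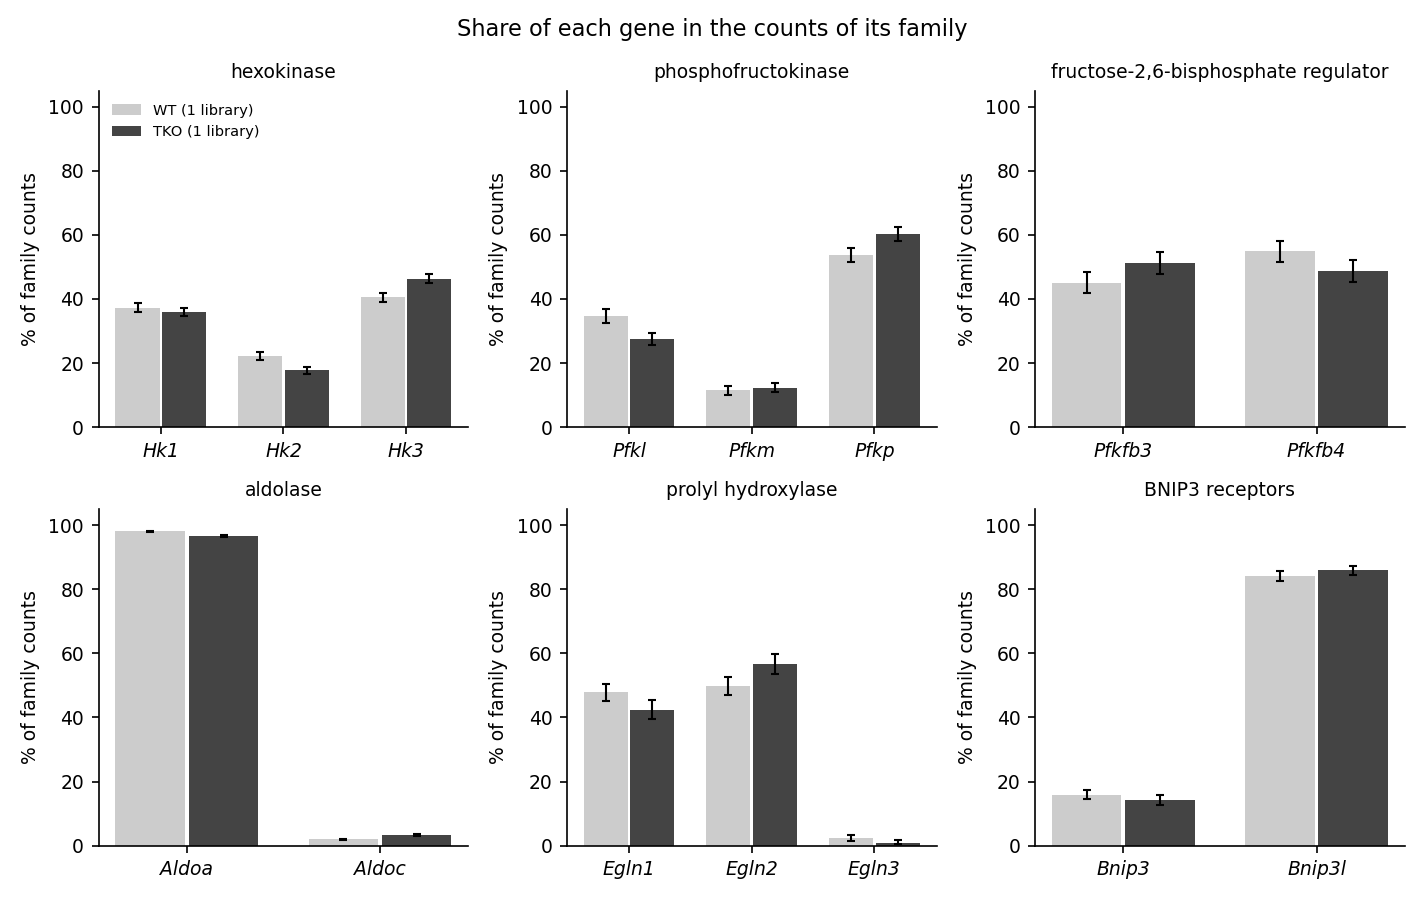
Share of each gene in the summed counts of its family (y axis, percent) in the WT library (light bars) and the TKO library (dark bars), with exact 95% intervals for counting error. Counts are not corrected for gene length. Hk3 and Pfkp take a larger share in TKO than in WT, and Hk2 and Pfkl a smaller one. The share of Egln1 is 47.8% (45.0 to 50.6) in WT and 42.4% (39.4 to 45.5) in TKO, with intervals that overlap.

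Aldolase cleaves the doubly phosphorylated fructose. Aldoc, the brain-type aldolase, was at 351 counts (WT) and 521 (TKO), or 1.55-fold more (1.35 to 1.78), the highest ratio among the members past the minimum. It remained a minor isoform, at 2.00% (1.79 to 2.21) of aldolase counts in WT and 3.35% (3.07 to 3.65) in TKO. Aldoa was at 17237 and 15021 counts (log2 ratio -0.13, interval -0.16 to -0.10), or -0.27 with the length trend removed, outside that interval.

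In the later steps no gene passed the size rule. Pkm, with 44739 and 37051 counts, had a log2 ratio of -0.21 (-0.23 to -0.19), Pgk1 -0.19 (-0.24 to -0.14) and Ldha, with 6732 and 5596 counts, -0.20 (-0.25 to -0.15). These 3 genes, whose enzymes make ATP or regenerate NAD, were lower in TKO than in WT also with the length trend removed, at -0.26, -0.30 and -0.32. Gapdh was at 39452 and 41737 counts (log2 ratio 0.15, interval 0.13 to 0.17), and Pgam1, the phosphoglycerate mutase, 0.10 (0.05 to 0.15). Both were above 0 only without the length correction, at -0.01 and -0.0024 with it. Tpi1, Eno1 and Gpi1 had log2 ratios of 0.0041, 0.01 and -0.06. The ratios of Tpi1 and Eno1 were below 0 when the libraries were scaled by their totals. The minor isoforms Eno2, with 55 and 49 counts, and Ldhb, the heart-type subunit, with 155 and 125, had intervals that include 0.

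Some of these values depend on how reads were divided. Fractional estimated counts, which arise when a read is shared among genes, occurred for 12 members, among them Gapdh, Aldoa, Eno1 and Ldha. Copies whose symbols extend those of members, such as Eno1b at 5 and 17 counts and Gapdhs at 9 and 5, lay under the minimum and were named after their values were seen. Ero1lb, a separate paralog of Ero1l, was above it with 582 and 665 counts. Gapdh has many processed pseudogenes in the mouse genome, and reads of such copies cannot be told apart from those of the parent at identical stretches.

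The oxygen-sensing genes all had log2 ratios below 0, from -0.03 for Arnt to -0.42 for Egln1. Hif1a, the main HIF alpha subunit, was at 1569 counts (WT) and 1362 (TKO), and its log2 ratio was -0.14 (-0.24 to -0.03), or -0.01 with the length trend removed. Epas1, which encodes HIF-2 alpha, was at 181 and 146 counts (log2 ratio -0.24, interval -0.57 to 0.08). It was the less abundant alpha subunit, at 3.08 and 2.53 FPKM against 30.6 and 27.2 for Hif1a. Arnt, the shared beta subunit, had 846 and 794 counts, and Vhl 414 and 378, both with intervals that include 0. With the length trend removed, Arnt lay above 0, at 0.07.

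Among the prolyl hydroxylases the 3 genes differed. Egln1, the main oxygen sensor and a HIF target itself, was at 613 and 439 counts (log2 ratio -0.42, interval -0.60 to -0.24). Egln2, which is not known for induction by low oxygen, had 640 and 586 (log2 ratio -0.06, interval -0.23 to 0.10). Egln3, the isoform with the strongest known induction by HIF, was at 30 counts (WT) and 10 (TKO), 2.87-fold lower (1.36 to 6.57). Of the counts of the 3 genes, Egln2 took 49.9% (47.1 to 52.7) in WT and 56.6% (53.5 to 59.7) in TKO. Counts are not corrected for gene length. By FPKM the share of Egln2 was 62.1% in WT and 68.4% in TKO, and that of Egln1 35.6% and 30.7%. Egln3 was a small part of the total, at 1.02 and 0.35 FPKM.

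Of the oxygen-responsive genes, 8 of 9 past the minimum had ratios below 0. Ankrd37, an ankyrin repeat gene used as a hypoxia marker, was at 32 counts (WT) and 13 (TKO), 2.35-fold lower (log2 ratio -1.23, interval -2.29 to -0.26). It and Egln3 were the members with the fewest counts past the minimum, and neither reached a minimum of 100 counts. With 1 added to each FPKM, neither passed 2-fold. Pdk1, a pyruvate dehydrogenase kinase, had 565 and 386 counts, 1.40-fold lower (1.23 to 1.60). Kdm3a, a histone demethylase, had 922 and 648, 1.36-fold lower (1.23 to 1.51). Vegfa, the vascular growth factor, had 573 and 410, 1.34-fold lower (1.17 to 1.52). Pdk1, Kdm3a and Vegfa did not pass the size rule. With the length trend removed the log2 ratios of Pdk1, Kdm3a and Vegfa were -0.31, -0.30 and -0.39.

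The mitophagy receptors had ratios closer to 0. Bnip3 was at 389 and 292 counts (log2 ratio -0.35, interval -0.57 to -0.13), and its paralog Bnip3l, the most abundant oxygen-responsive member at 58.1 and 51.3 FPKM, 2055 and 1780 (log2 ratio -0.14, interval -0.23 to -0.05). Ero1l, an oxidase of the endoplasmic reticulum that is also named Ero1a, was at 638 and 558 counts (log2 ratio -0.13, interval -0.29 to 0.04). Higd1a, a mitochondrial protein gene, had 159 and 152 counts and a log2 ratio of 0.0006 (-0.33 to 0.33). Adm, the adrenomedullin gene, was at 1 count (WT) and 2 (TKO), too few for a comparison. Summed over the 10 genes, the counts were 5364 and 4251 (log2 ratio -0.27, interval -0.33 to -0.21).

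Promoter sequences were examined because members that HIF binds share the core ACGTG or GCGTG. Both cores were searched on both strands in the 250 bases before each RefSeq start (GRCm38.p6), where 34 members had an entry. Epas1 and Bnip3l had none. A palindrome such as CACGTG, which is also an E-box, matches on both strands. At least 1 core was found for 30 of the 34 members (88.2%), namely 17 of 20 enzymes, 4 of 5 oxygen-sensing genes and 9 of 9 oxygen-responsive genes. These 9 are not those past the count minimum, since they include Adm and leave out Bnip3l. For Vegfa the window of 1 listed start held no core, and that of another start held 2. Among all genes past the count minimum the share was 62.0%. A gene with several starts has more windows in which a core can occur. Counted per start, 39 of 51 windows of members (76.5%) held one, against 56.1% for genes past the minimum. The share per start was 78.1% for enzymes, 83.3% for oxygen-sensing genes and 69.2% for oxygen-responsive genes. Over all promoters of the same length in the table, 38.6% held one. A match is a description of letters, not a bound site, and a link of the core to the ratios was not tested. The upstream window of Egln3, at chr12:54203875-54204124 on the minus strand, is shown whole because Egln3 had the lowest ratio, with its 1 core in capitals:
Egln3: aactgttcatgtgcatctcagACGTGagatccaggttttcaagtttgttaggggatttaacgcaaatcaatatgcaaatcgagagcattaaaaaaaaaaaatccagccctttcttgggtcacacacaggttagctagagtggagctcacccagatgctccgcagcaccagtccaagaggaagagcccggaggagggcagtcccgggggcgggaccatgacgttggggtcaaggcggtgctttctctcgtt

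Short windows, 1 for each gene, show cores of other members, again in capitals. Where RefSeq lists several starts for a gene, as for Pfkfb3, the window lies upstream of 1 of them. The first 5 below belong to oxygen-responsive genes with ratios below 0, and the last 4 to enzymes. Ankrd37 (chr8:45999988-46000015, minus strand) has cores on opposite strands that overlap, Bnip3 (chr7:138909599-138909624, minus strand) holds cores in a cluster of 3 stretches, and Ldha (chr7:46845649-46845674, plus strand) has a palindromic core. Pdk1 lies at chr2:71873136-71873160 (plus), Kdm3a at chr6:71632930-71632954 (minus), Ero1l at chr14:45318621-45318645 (minus), Pgk1 at chrX:106186940-106186964 (plus), Pfkfb3 at chr2:11502128-11502153 (minus) and Aldoc at chr11:78323013-78323037 (plus):
Ankrd37: cttcactgcgCACGCGTGctgcggccgc
Bnip3: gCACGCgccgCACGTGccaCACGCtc
Pdk1: gcctacatggGCGTGtctttaacca
Kdm3a: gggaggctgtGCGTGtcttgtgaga
Ero1l: cgcgccgctgCACGTccgcagggga
Ldha: tgtcgcagcaCACGTGgagccactct
Pgk1: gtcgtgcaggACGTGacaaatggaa
Pfkfb3: cccttctctcCACGTGaaagggggct
Aldoc: acctctgaggGCGTGgccttaccct

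Of the enzymes shown, Aldoc and Pfkfb3 had log2 ratios of 0.64 and 0.16, and Ldha and Pgk1 -0.20 and -0.19.

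From each hairpin of the targeted clusters 1 arm was chosen, which gave 13 distinct microRNAs in 4 seed families. Members were searched for sites of these microRNAs because loss of a microRNA can release its target transcripts. Sites of the opposite arms were not searched. The seed, bases 2 to 8 of the mature microRNA, is in capitals below for 1 microRNA of each family, from RefSeq on GRCm38.p6. The seed of mmu-miR-17-5p is shared by 6 microRNAs of the 3 clusters, that of mmu-miR-18a-5p by 2, that of mmu-miR-19a-3p by 2 and that of mmu-miR-92a-3p by 3:
mmu-miR-17-5p: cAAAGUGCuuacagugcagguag
mmu-miR-18a-5p: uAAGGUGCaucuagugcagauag
mmu-miR-19a-3p: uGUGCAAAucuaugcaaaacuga
mmu-miR-92a-3p: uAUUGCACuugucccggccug

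The complement of each seed was searched in the longest annotated 3' untranslated region of each gene (GENCODE M21, GRCm38). A site of 7 bases for at least 1 family was found in 14 of 36 members (38.9%) and in 34.0% of the 11039 genes past the minimum that were searched. The enzymes had 4 of 20, with a median region of 784 bases, against 4 of 6 oxygen-sensing genes, with 1956 bases, and 6 of 10 oxygen-responsive genes, with 1600 bases. The median region over all searched genes was 1217 bases. Sites of Hif1a, Vhl and Egln1 are printed because these genes act in oxygen sensing, and the miR-17 sites of Egln3, Vegfa and Pfkp because theirs were the ratios lowest and highest among members with that site. Epas1, also an oxygen-sensing gene, has a miR-17 site and a miR-18 site that are not printed. Capitals mark the complement of the seed. Hif1a has a miR-17 site at chr12:73946666-73946686 and a miR-18 site at chr12:73945995-73946015 (both plus), Egln1 miR-19 sites at chr8:124909501-124909521 and chr8:124908717-124908737 (minus), Vhl a miR-17 site at chr6:113630119-113630139 (plus), Egln3 a miR-17 site at chr12:54180324-54180344 (minus), Vegfa one at chr17:46018688-46018708 (minus) and Pfkp one at chr13:6581371-6581391 (minus):
Hif1a, miR-17: gtttggttttatGCACTTTgt
Hif1a, miR-18: gtcatttaaaatGCACCTTtt
Egln1, miR-19: agaaagccagagTTTGCACag
Egln1, miR-19, other site: ggaacagcccttTTTGCACga
Vhl, miR-17: tcccacgtcccaGCACTTTct
Egln3, miR-17: tgcttcttattcGCACTTTat
Vegfa, miR-17: actcttcgaggaGCACTTTgg
Pfkp, miR-17: agttatttatcaGCACTTTat

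The ratios of members with and without a site overlapped. The 13 members past the minimum with a site had a median log2 ratio of -0.24, from -1.52 for Egln3 to 0.25 for Pfkp, with 9 below 0 and 4 above. The 22 members without a site had a median of -0.11, from -1.23 to 0.64. With the length trend removed the medians were -0.10 and -0.13. Over all searched genes the medians were -0.06 with a site and 0.03 without one, and 0.01 and -0.0043 with the trend removed. These are descriptions over genes of 1 pair of libraries, and mature microRNAs were not measured.

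Related lists cover other genes of the same pathways. Of 53 other carbohydrate genes, 47 were in the table and 41 passed the minimum, with a median log2 ratio of 0.01, and by the size rule 1 was higher and 0 were lower. The higher gene was Slc2a6, a hexose transporter of the glucose transporter family, which was at 746 counts (WT) and 1950 (TKO), 2.74-fold more (2.51 to 2.98). The most abundant were Pgd and Taldo1 of the pentose phosphate pathway, at 302 and 292 FPKM in WT, with log2 ratios of -0.06 and 0.26, and Tkt, of the same pathway, with 0.12. Slc2a1, the glucose transporter that HIF induces, was at 412 and 310 counts (log2 ratio -0.34, interval -0.56 to -0.13), chosen here after its value was seen.

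Of 50 other hypoxia genes, 39 passed the minimum, with a median log2 ratio of -0.19 (-0.23 with the length trend removed), 27 of them below 0. By the size rule 3 were lower and 0 higher. The lower genes act on collagen: Plod2, a lysyl hydroxylase, with 104 and 37 counts (log2 ratio -1.43), Loxl2, with 283 and 104 (-1.38), and Lox, with 659 and 248 (-1.34), which cross-link collagen fibres. Fibroblasts express these genes strongly, and the fibroblast and stromal markers had a median log2 ratio of -1.71 in the same comparison. Their part in the values of these 3 genes was not tested. The most abundant genes of the list, Anxa2, Hmox1 and Mif, had log2 ratios of -0.10, -0.54 and 0.02.

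**Figure D4:**
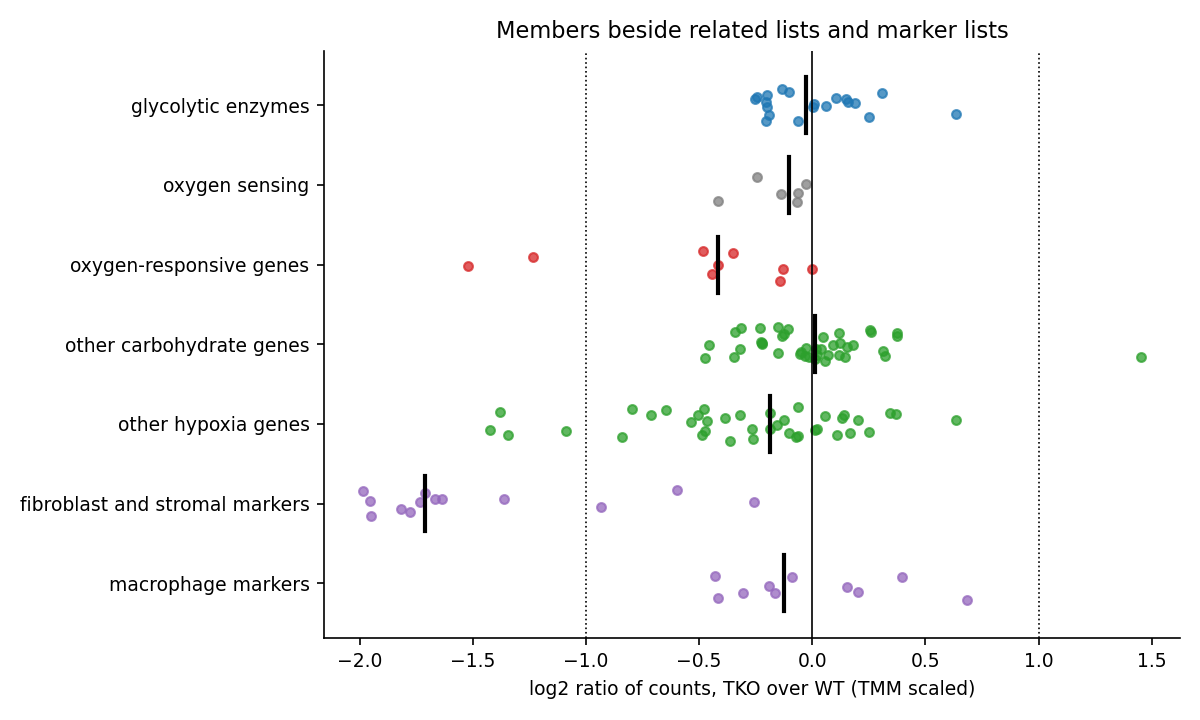
Log2 ratio of counts in TKO over WT (x axis) for genes past the count minimum in the 3 groups of members, 2 related lists and 2 marker lists; each point is a gene, black bars are medians and dotted lines mark 2-fold. The median is -0.03 for glycolytic enzymes, -0.42 for oxygen-responsive genes, -0.19 for other hypoxia genes and -1.71 for fibroblast and stromal markers.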

How the data were processed

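Polyadenylated RNA of 2 libraries, 1 per genotype, was measured. RSEM 1.2.12, HISAT2 2.0.4, Bowtie2 2.2.5 and the mm10 build are listed, without roles, per the submitters' processing notes. Annotation, filters: not given in the sources used here. Per gene, the authors deposited estimated counts and FPKM, in which genes at 0 counts are listed at 0.01. The deposited log2 ratio is that of the FPKM values. How the deposited p-value was computed is unstated, and the deposited FDR was read as a score, since 713 of its values lie above 1.

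Expected counts were rounded and scaled with TMM factors (edgeR 4.0.16, R 4.3.3). Ratios have no pseudocount, and a 0 is set to 3 counts. Intervals are exact conditional binomial (Clopper-Pearson); no molecular identifiers are described, and reads may repeat a molecule, so they cover counting error only. Calling and intervals were tested on simulated data with counting error only, the error that the intervals assume. That check says nothing about variation between mice or libraries. Alternatives were library totals, DESeq2 1.42.0 size factors, FPKM, other minimums and thresholds, and removal of the lowess trend (span 0.3, statsmodels 0.14.6) of the ratio with gene length. Member symbols were matched to RefSeq by Entrez identifier. All members were named; of related lists, genes past the size rule and the 3 most abundant; of marker lists, genes past the size rule and the most abundant; of copies of members, those past the minimum. Members and lists were chosen with earlier results of these data known.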

Additional observations from a re-analysis of the deposited data

How the results depend on the processing

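No paired analysis was possible because each genotype had 1 library, and for the same reason no replicate could be left out. The count of members lower by the size rule was 2 in the reported analysis and 0 with log2 of FPKM plus 1 and with a minimum of 100 counts, and the count of higher members was 0 and became 1 at 1.5-fold. The summed log2 ratio of the enzymes, -0.038, was -0.074 with library totals and -0.058 with DESeq2 size factors, both outside its counting interval, and -0.049 without Gapdh and Pkm, a choice made after seeing the data, as was leaving out enzymes with a copy in the table (median -0.06). The median of the oxygen-responsive genes ranged from -0.45 to -0.31 and that of the enzymes from -0.09 to 0.0041 (above 0 with the minimum of 100 counts), over the alternatives run. Of the 35 members past the minimum, 6 changed sign with the length trend removed (Gapdh, Pgam1, Tpi1, Eno1, Arnt and Higd1a) and 3 with library totals (Tpi1, Eno1 and Higd1a). With the trend removed 14 of 20 enzymes lay below 0, against 10 without. Depth limits Egln3, Ankrd37, Eno2 and Adm, each with at most 55 counts in a library.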

Other observations

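Genes of neighbouring pathways were read from the same 2 libraries, and those named here were chosen after their values were seen. In the pentose phosphate pathway, which branches from glycolysis and makes NADPH, G6pdx, the entry enzyme, had a log2 ratio of 0.02 (-0.04 to 0.08). Later steps differed among themselves, from -0.06 (-0.10 to -0.01) for Pgd and 0.07 (-0.14 to 0.28) for Rpe to 0.26 (0.20 to 0.32) for Taldo1, 0.31 (0.13 to 0.49) for Pgls and 0.38 (0.05 to 0.70) for Rpia. With the length trend removed, Taldo1, Pgls and Rpia had 0.09, 0.10 and 0.26. In glycogen metabolism, Gys1, the glycogen synthase gene, was at 339 counts (WT) and 233 (TKO), with -0.48 (-0.72 to -0.23), and the phosphorylases Pygl and Pygb had 0.15 (0.03 to 0.28) and -0.23 (-0.34 to -0.12).

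Of the other hypoxia genes, 3 that handle iron or haem were picked out by hand, so they stand for no group. Tfrc, the transferrin receptor, was at 715 and 381 counts (WT, TKO), with a log2 ratio of -0.84 (-1.03 to -0.66). Trf, transferrin, had 1486 and 1023, a log2 ratio of -0.47 (-0.59 to -0.36), and Hmox1, which frees iron from haem, 5499 and 3625, a log2 ratio of -0.54 (-0.60 to -0.47). Not every oxygen-responsive gene lay below 0: Ndrg1, Cited2 and Kdm4c had 0.37 (0.20 to 0.54), 0.34 (0.20 to 0.48) and 0.63 (0.45 to 0.82).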
